A study of Bos taurus with 6 samples.

Results

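The insulin-like growth factor (IGF) axis was examined in bovine articular chondrocytes after TGF-β1. Its members were 2 ligands (IGF1 and IGF2), 2 receptors (IGF1R and IGF2R) and 6 binding proteins (IGFBP2 to IGFBP7), and every probe set whose only annotated gene symbol was one of these was taken. This gave 10 of the 9155 genes named on the array and 19 of the 24016 probe sets tested. Chondrocytes from the metacarpal-phalangeal joints of cattle were grown at high density as micromass cultures, and after overnight culture they were left untreated or exposed for 8 hours to TGF-β1 at 5 ng/ml (the treatment protocol names a vehicle). RNA from 3 TGF-β1 cultures and 3 untreated cultures, numbered 1 to 3 in both groups, was amplified in 2 rounds from its poly(A) end and hybridized to 6 Affymetrix Bovine Genome Arrays. The study describes cultures of different cows grown with and without TGF-β, with no genetic change and no further treatment in any group. Its culture medium held fetal bovine serum, ascorbate and antibiotics. No age, sex or breed of the animals is used here.

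IGF1 and IGF2 are secreted growth factors, and in cartilage IGF1 is known as a main anabolic signal that drives proteoglycan synthesis and chondrocyte survival. Both act through the tyrosine kinase IGF1R, whereas IGF2R, the cation-independent mannose 6-phosphate receptor, takes up IGF2 and delivers it to lysosomes. The IGF-binding proteins hold the ligands in the extracellular fluid and matrix, protect them from degradation and can either withhold them from IGF1R or release them near the cell, often after proteolysis.

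The values are log2 signals of which each probe set's median over the 6 arrays has been subtracted, so 0 is that median, a difference of 1 is a doubling, and how strongly a gene was expressed cannot be read from them. Levels of different genes could therefore not be compared, and the presence of chondrocyte markers could not be checked. The known TGF-β1 targets TGFBI and PMEPA1 differed in the labelled direction, by 3.39 and 2.32 (log2, TGF-β1 minus untreated; limma, adjusted p = 0.000522 and 0.000189). Arrays with the same number deviated together, and the test pairs them. Both arrays of replicate 3 stood apart from the rest along a first principal component that held 56.4% of the variance. The 34 cell cycle probe sets had medians of 2.16 and 1.96 on them, against -0.28 to -0.04 on the other 4 arrays, and 32 of the 34 had their highest replicate mean there. The 18 bacterial spike-in probe sets had a median of 1.53 on the TGF-β1 array of replicate 2, against -0.17 to 0.06 on the other arrays.

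Of the 19 IGF axis probe sets, 1 was significantly higher with TGF-β1, none was significantly lower, and 18 did not pass (paired limma, Benjamini-Hochberg adjustment over all probe sets, threshold 0.05). The one that rose was IGFBP5, by 1.66 on the log2 scale. Over all probe sets 2.44% were called higher and 3.46% lower, and 1 of 19 is 5.26%, a share that a single probe set sets. The 4 probe sets with an unadjusted p under 0.05 belonged to IGFBP5, IGFBP6 and, with both its probe sets, IGF2R. They are 21.1% of the 19, close to the 19.7% of all probe sets with such a p. TGF-β1 and untreated values did not overlap for 2 of the 19 probe sets, both higher with TGF-β1, which is 10.5% against 6.11% of all probe sets. None was separated in the lower direction, against 4.91% of all. The median size of the difference was 0.144 among the members and 0.123 among all probe sets.

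**Figure D1:**
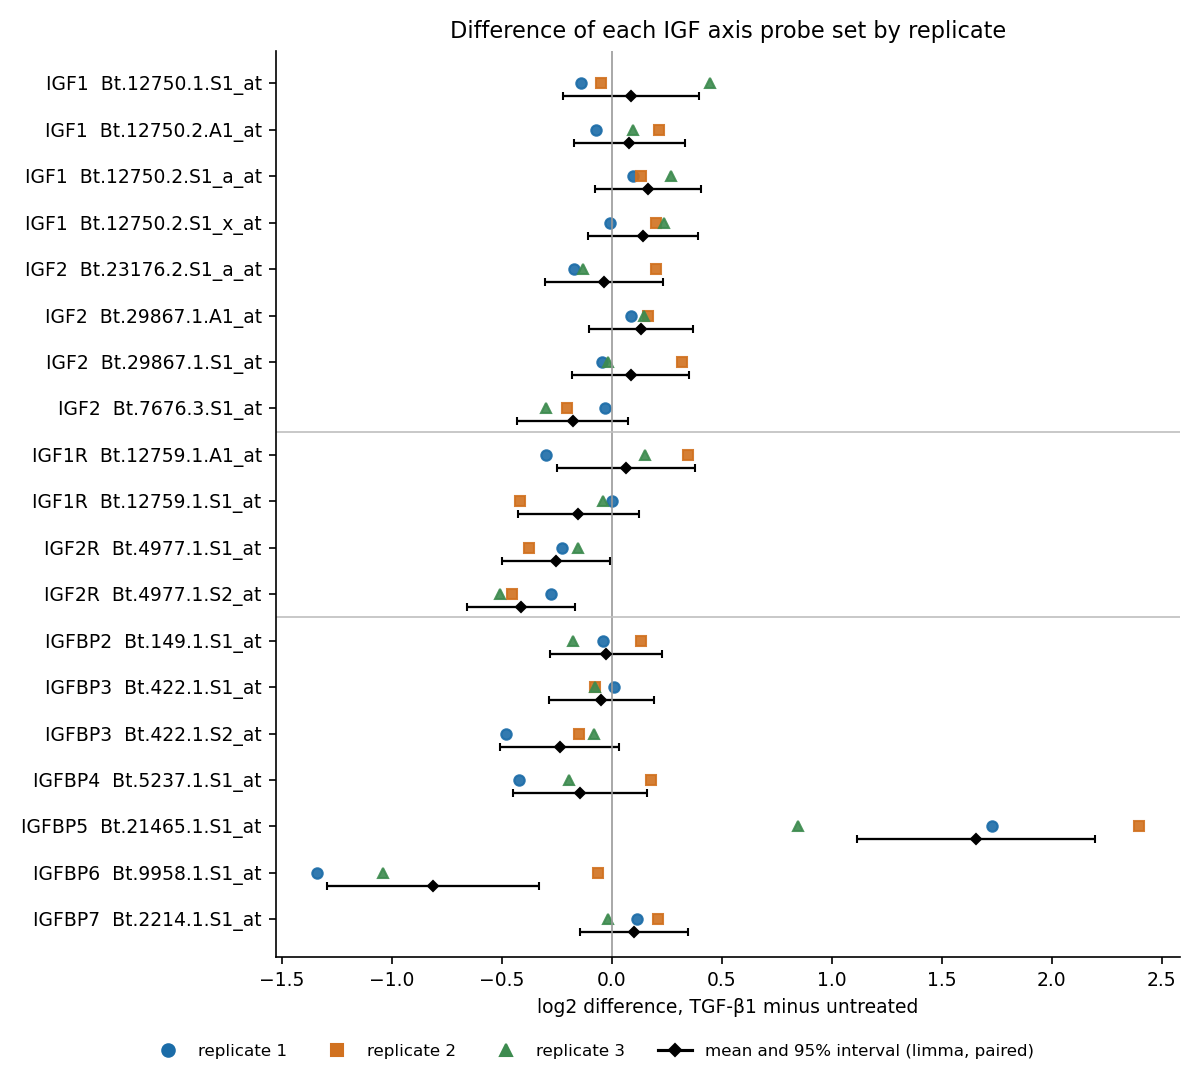
Log2 difference, TGF-β1 minus untreated, of each of the 19 IGF axis probe sets, ordered as ligands, receptors and binding proteins. Coloured points are the 3 replicates, and black diamonds with bars are the mean and its 95% interval from the paired limma fit. IGFBP5 lies to the right of 0 in every replicate, IGFBP6 and both IGF2R probe sets lie to the left of 0 in every replicate, and the ligands lie around 0.

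**Figure D2:**
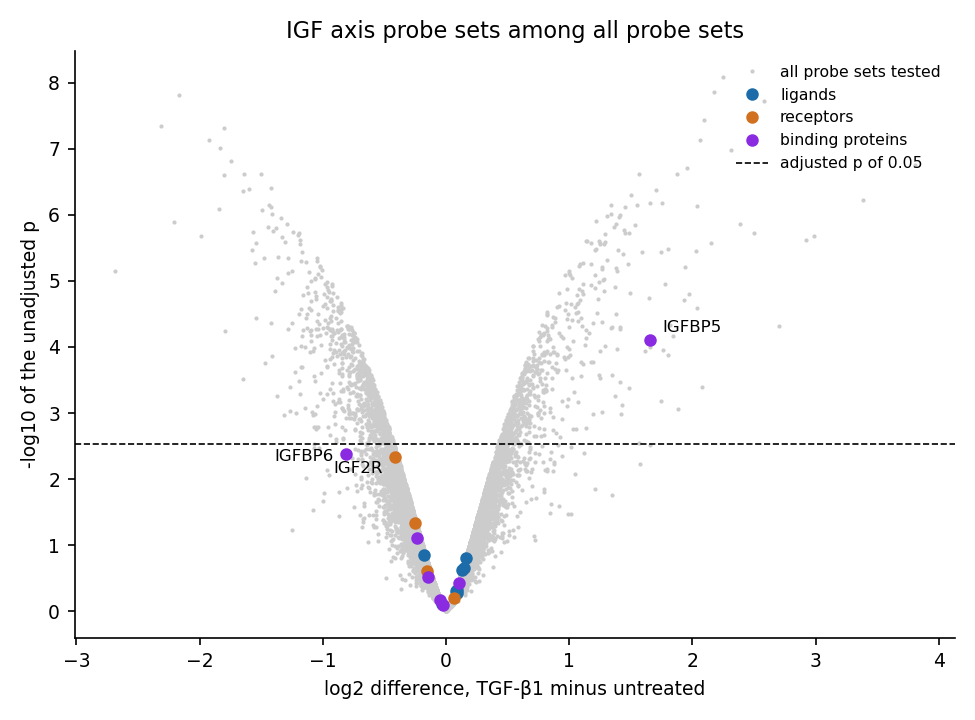
Log2 difference (x axis) against the -log10 of the unadjusted p (y axis) for all 24016 probe sets in grey, with the IGF axis probe sets coloured by role. IGFBP5 is the only coloured point above the dashed line, which marks an adjusted p of 0.05, and IGFBP6 and an IGF2R probe set lie just below it.

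The ligands gave small differences. IGF1, the growth factor with the best known anabolic role in cartilage, was measured by 4 probe sets. On the probe set with its smallest p, Bt.12750.2.S1_a_at, the untreated arrays had -0.11, 0.02 and -0.21 and the TGF-β1 arrays -0.02, 0.15 and 0.06 in replicates 1, 2 and 3. The TGF-β1 value was higher in each replicate, but the groups overlapped, and the mean difference of 0.17 (SE 0.107, 3 pairs) had an adjusted p of 0.457. Bt.12750.2.S1_x_at, which shares the 12750.2.S1 of that name, gave 0.14, Bt.12750.1.S1_at gave 0.09 and Bt.12750.2.A1_at gave 0.08. Their adjusted p were 0.550, 0.804 and 0.778. The difference of Bt.12750.1.S1_at came from replicate 3, where it was 0.45, while it was -0.14 and -0.05 in replicates 1 and 2.

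IGF2, the ligand with its major role in fetal growth, also had 4 probe sets, and these did not share a direction. Bt.29867.1.A1_at had -0.08, -0.10 and -0.01 on the untreated arrays and 0.01, 0.06 and 0.14 on the TGF-β1 arrays. These groups did not overlap, yet the gap between them was narrow, and the difference of 0.13 (SE 0.104) had an adjusted p of 0.564. Bt.29867.1.S1_at differed by 0.09 and Bt.23176.2.S1_a_at by -0.03, with adjusted p of 0.771 and 0.921. Bt.7676.3.S1_at had 0.67, 0.10 and -0.64 on the untreated arrays and 0.64, -0.10 and -0.94 on the TGF-β1 arrays. This probe set followed the replicates rather than the treatment, with replicate means of 0.65, 0.00 and -0.79 and a treatment difference of -0.18 (adjusted p = 0.441). Over the 6 arrays its Pearson correlation with the other IGF2 probe sets was 0.61, -0.64 and -0.12 (Spearman 0.60, -0.60 and -0.26), so the probe sets assigned to IGF2 did not report 1 common pattern. Over the 8 ligand probe sets the 95% intervals of the difference ran from -0.43 at the lowest to 0.41 at the highest.

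**Figure D3:**
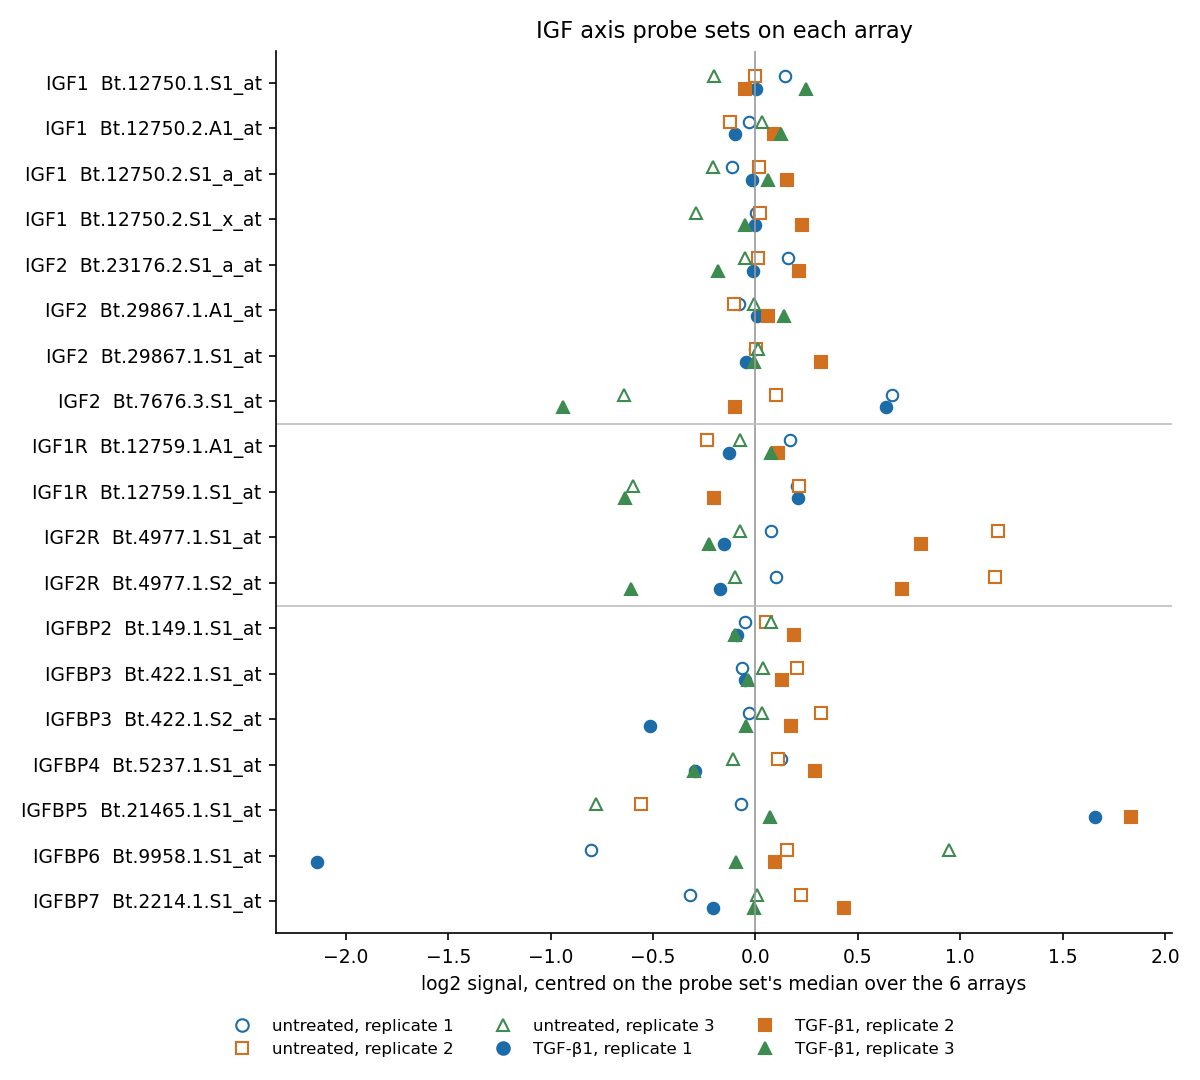
Centred log2 signal (x axis) of each IGF axis probe set on the 6 arrays. Open symbols are untreated and filled symbols TGF-β1 arrays, and colour and shape give the replicate. IGFBP5 has all filled symbols to the right of all open ones, IGF2R has both replicate 2 arrays at the right, and the IGF2 probe set Bt.7676.3.S1_at falls into replicates.

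Among the receptors, IGF1R, which carries the signal of both ligands, had 2 probe sets that differed in sign. They share the number 12759.1 and differ in the A1 or S1 of their names. Whether both measure the IGF1R transcript was not tested. Bt.12759.1.A1_at differed by 0.07 (SE 0.138, adjusted p = 0.860), with -0.30 in replicate 1, 0.35 in replicate 2 and 0.15 in replicate 3. Bt.12759.1.S1_at differed by -0.15 (SE 0.122, adjusted p = 0.578), of which replicate 2 gave -0.42 and the other replicates 0.00 and -0.04. The second probe set was lowest in replicate 3 on both arrays, at -0.60 untreated and -0.64 with TGF-β1, where the cell cycle probe sets were highest. The first probe set had -0.08 and 0.08 on these arrays. Over the 6 arrays the 2 probe sets had a Pearson correlation of -0.25 (Spearman -0.49). The part of the cell cycle genes in the values of the second probe set was not tested.

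IGF2R, which removes IGF2 from the cell surface, was lower with TGF-β1 in 3 of 3 replicates on both probe sets without passing the threshold. On Bt.4977.1.S2_at the untreated arrays had 0.10, 1.17 and -0.10 and the TGF-β1 arrays -0.17, 0.71 and -0.61. The differences were -0.28, -0.45 and -0.51, with a mean of -0.41 (SE 0.109, 95% interval -0.66 to -0.16), an unadjusted p of 0.00456 and an adjusted p of 0.0655. On Bt.4977.1.S1_at the untreated arrays had 0.08, 1.19 and -0.08 and the TGF-β1 arrays -0.15, 0.81 and -0.23, which gave -0.25 (SE 0.108, adjusted p = 0.241). The groups overlapped on both, because both arrays of replicate 2 lay far above the others. The probe sets ranked the 6 arrays identically (Spearman 1, Pearson 0.976), as arrays that share their replicate and treatment. The chondrocyte marker list (28 probe sets) was also highest in replicate 2, with means of 0.70 and 0.62 against -0.39 to -0.21 elsewhere. There, 26 of the 28 were highest. The fibroblast and synovial marker list was highest in replicate 2 too, with 0.39 and 0.36 against -0.72 to -0.09 elsewhere. Of its 14 probe sets, 12 were highest there. The part of both lists in the IGF2R pattern was not tested.

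Of the 7 probe sets of the binding proteins, 1 was called, beside 2.44% higher and 3.46% lower of all probe sets. IGFBP5, a binding protein that attaches to the extracellular matrix and can hold IGF1 there, was measured by the single probe set Bt.21465.1.S1_at. The untreated arrays had -0.07, -0.56 and -0.78 and the TGF-β1 arrays 1.66, 1.84 and 0.07 in replicates 1, 2 and 3. Every TGF-β1 array lay above every untreated array, although the TGF-β1 array of replicate 3 exceeded the untreated array of replicate 1 only slightly. The differences within replicates were 1.73, 2.39 and 0.85. Their mean of 1.66 (SE 0.238, 95% interval 1.11 to 2.20, 3 pairs) corresponds to 3.15-fold higher signal, with an adjusted p of 0.00581, and ranked 39 among all probe sets by increase. In these bulk cultures more RNA per cell cannot be told apart from more cells that express the gene.

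The IGFBP5 call rested on the pairing of the replicates. Without the replicate block the same difference had an adjusted p of 0.647 (unadjusted 0.0135), and with the replicate as a random block 0.0671. Leaving out each replicate in turn gave 1.62, 1.29 and 2.06 without replicate 1, 2 and 3, and each passed, the nearest to the threshold being without replicate 2 (adjusted p = 0.0445). The spike-in signal was high on the TGF-β1 array of replicate 2, which also had the highest IGFBP5 value. The part of this spike-in signal in the IGFBP5 values was not tested. After a second quantile normalization, applied to the centred values, the IGFBP5 difference was 2.07 (paired limma, adjusted p = 0.0480).

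The genes whose values over the 6 arrays were most like those of IGFBP5 were DCP1A (Pearson correlation 0.995), a subunit of the mRNA decapping complex, SEPHS2 (0.990), an enzyme of selenium metabolism, and PDLIM7 (0.985), a PDZ and LIM domain protein of the actin cytoskeleton. These are the 3 highest of all named genes over arrays that share treatment and replicate. Their differences were smaller than that of IGFBP5, at 0.67, 0.58 and 0.27.

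IGFBP6, a binding protein known for its preference for IGF2 over IGF1, gave the largest decrease of the axis without passing the threshold. On Bt.9958.1.S1_at the untreated arrays had -0.80, 0.16 and 0.94 and the TGF-β1 arrays -2.14, 0.10 and -0.10. The TGF-β1 value was lower in 3 of 3 replicates, by -1.34, -0.06 and -1.04, and replicate 2 hardly differed. The mean was -0.81 (SE 0.212, 95% interval -1.29 to -0.33), with an unadjusted p of 0.00423 and an adjusted p of 0.0626. Without replicate 2 the difference was -1.19 and passed (adjusted p = 0.0131), and without replicate 1 or 3 it was -0.55 or -0.70 and did not.

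The replicates differed more in IGFBP6 than the treatments did, with replicate means of -1.47, 0.13 and 0.42. The fibroblast collagen COL1A2 was lowest in replicate 1 as well. On its probe set Bt.8124.1.S1_at the untreated arrays had -1.43, 0.58 and 0.44 and the TGF-β1 arrays -1.88, 0.12 and -0.12, and both COL1A2 probe sets were lower with TGF-β1 (-0.49 and -0.65, adjusted p = 0.0299 and 0.0498). The 14 fibroblast and synovial marker probe sets had means of -0.40 and -0.72 on the arrays of replicate 1 and -0.16 to 0.39 elsewhere. Of these, 12 were highest in replicate 2 and none in replicate 3, where the replicate mean of IGFBP6 was highest. The 2 called of the 14 (14.3%, beside 3.46% lower over all probe sets) were those of COL1A2. Of the 28 chondrocyte marker probe sets, 14 were lowest in replicate 1 and 13 in replicate 3. The fibroblast and synovial list was not uniform, since only 9 of its 14 probe sets were lowest in replicate 1. The other chain of the COL1A2 collagen, COL1A1, had -0.27 to -0.00 there on its 2 probe sets. The part of fibroblast and synovial cells in the IGFBP6 values was not tested.

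**Figure D4:**
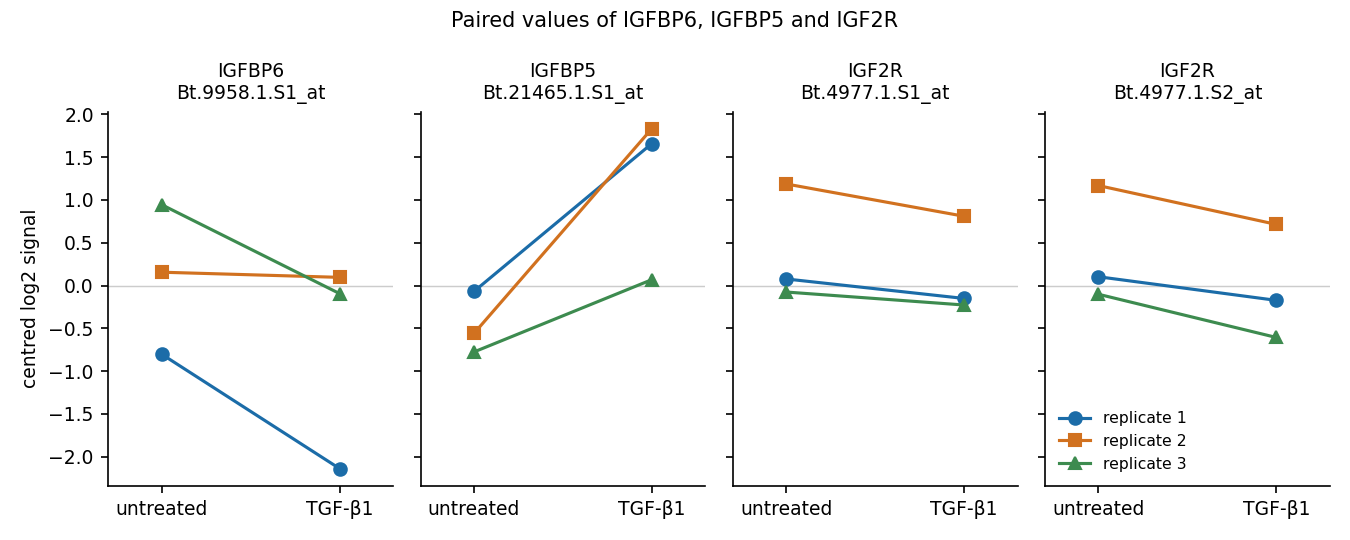
Centred log2 signal (y axis) of the probe sets of IGFBP6, IGFBP5 and IGF2R in untreated and TGF-β1 cultures (x axis), with a line joining the arrays of the same replicate. All IGFBP5 lines slope up and all IGF2R lines slope down, with replicate 2 far above the rest for IGF2R, and the IGFBP6 line of replicate 2 is nearly level.

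The other binding proteins did not pass. IGFBP3, the main carrier of IGF in serum, had differences of -0.05 (SE 0.105) on Bt.422.1.S1_at and -0.24 (SE 0.119) on Bt.422.1.S2_at, with adjusted p of 0.870 and 0.329. The second probe set was lower in 3 of 3 replicates, and replicate 1 gave most of it, with -0.03 untreated and -0.51 with TGF-β1. IGFBP4, an inhibitory binding protein that is cleaved by pappalysin, differed by -0.14 (SE 0.133, adjusted p = 0.636) and had no common sign, at -0.42, 0.18 and -0.19. IGFBP7, a low-affinity member also known for binding insulin, differed by 0.10 (SE 0.108, adjusted p = 0.691). Its probe set number, Bt.2214, is shared with a probe set of the neighbouring gene POLR2B, so its assignment is less certain.

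IGFBP2, whose gene is the direct neighbour of IGFBP5 in the ARS-UCD2.0 annotation, differed by -0.03 (SE 0.112, 95% interval -0.28 to 0.23, adjusted p = 0.938). Its untreated arrays had -0.05, 0.05 and 0.08 and its TGF-β1 arrays -0.09, 0.19 and -0.10. The interval of IGFBP2 and that of IGFBP5 therefore did not overlap, although the difference between both genes was not itself tested.

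The range of the replicate means exceeded the size of the TGF-β1 difference in 16 of the 19 probe sets (84.2%), IGFBP5 being among the 3 where it did not. This was about the share of all probe sets, 82.6%. Of the 19, 8 had the same sign in all replicates (42.1%), beside 40.7% of all probe sets. The SD over the 6 arrays was in the upper 10% of all probe sets for IGFBP5, IGFBP6, both IGF2R probe sets and the IGF2 probe set Bt.7676.3.S1_at.

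The other genes of the pathway were described by 5 lists with 90 genes, of which 53 were named on the array with 101 probe sets. Of these, 3 probe sets were higher (2.97%) and 7 lower (6.93%), beside 2.44% and 3.46% of all probe sets. They belonged to 2 genes that rose and 6 that fell. IRS1, IRS2, MTOR and FOXO1 were among the genes not named on the array and were not analysed here.

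Among genes for binding, release and clearance of IGF, 3 of 16 probe sets were higher (18.8%, beside 2.44% of all probe sets). None was lower, beside 3.46% of all. The 3 belonged to 2 genes. ADAMTS1, a secreted metalloproteinase best known for cleaving aggrecan, had -0.29, -1.35 and 0.29 on the untreated arrays and 1.18, -0.62 and 1.75 on the TGF-β1 arrays of Bt.12010.1.S1_at. It was higher in 3 of 3 replicates although the groups overlapped, with a difference of 1.22 (SE 0.156, adjusted p = 0.00363), and by 1.27 on its other probe set (adjusted p = 0.0261). ADAM9, a membrane metalloproteinase reported to cleave IGFBP5, rose by 0.60 on 1 probe set (SE 0.109, adjusted p = 0.0154), while its other 2 gave 0.49 and 0.28 (adjusted p = 0.0522 and 0.229). The pappalysin gene PAPPA (0.14 and 0.05) and its inhibitor STC1 (-0.16) did not pass, nor did IGFBP1 (0.12), IGFALS (0.13 and 0.03) or HTRA1 (0.18). The second ADAMTS1 probe set did not pass without replicate 1 (adjusted p = 0.0556), nor ADAM9 without replicate 2 (0.0837).

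Among the 3 probe sets of IGFBP-related proteins, CCN5, a matricellular protein also called WISP2, was lower by -0.74 (SE 0.152, adjusted p = 0.0261), with 0.74, 0.93 and -0.04 untreated and -0.31, 0.04 and -0.32 with TGF-β1. It did not pass without replicate 1 (adjusted p = 0.118) or 2 (0.168). CCN1 (0.16) and CCN2 (0.20), the latter a well-known TGF-β target in other cells, did not pass. A single call among 3 probe sets is 33.3%, beside 3.46% lower of all probe sets.

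Downstream of the receptor, 4 of 41 probe sets were lower (9.76%, beside 3.46% of all probe sets). None was higher, beside 2.44% of all. The 4 belonged to 3 genes. SHC1, an adaptor that links IGF1R to the Ras pathway, had 0.61, 0.16 and 0.35 on the untreated arrays and -0.16, -0.38 and -0.37 on the TGF-β1 arrays of Bt.4279.1.S1_at. The groups did not overlap, and the difference was -0.68 (SE 0.109, adjusted p = 0.00943). The other SHC1 probe sets gave -0.57 (adjusted p = 0.0304) and -0.37 (0.105). Regulatory subunits of phosphoinositide 3-kinase followed, with PIK3R1 at -0.58 (SE 0.119, adjusted p = 0.0254). PIK3R2 gave -0.45 (SE 0.105, adjusted p = 0.0435) on Bt.10446.1.S1_at and 0.31 (adjusted p = 0.160) on Bt.515.1.S1_at, so its direction was not settled. The called SHC1 probe sets lost the threshold without replicate 1 (adjusted p = 0.0525 and 0.178), the second of them also without replicate 2 (0.120), PIK3R1 without replicate 2 or 3 (0.132 and 0.0800), and PIK3R2 without any one of them (0.0820 to 0.175). INSR, the insulin receptor, differed by -0.02 as the mean of its 5 probe sets (SE 0.0948, adjusted p = 0.917 over genes).

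The growth hormone axis, which controls IGF1 in liver, had no call among 22 probe sets, beside 2.44% higher and 3.46% lower of all. GHR, the growth hormone receptor, differed by 0.05 as the mean of 11 probe sets (SE 0.0865, adjusted p = 0.816 over genes). On the untreated and TGF-β1 arrays of replicate 3 the 11 GHR probe sets had means of 0.24 and 0.27, against -0.05 to 0.03 elsewhere. Of these, Bt.16012.1.S1_at had 2.79 and 2.96 on the untreated and TGF-β1 arrays of replicate 3 and -0.51 to 0.04 on the other arrays. FABP4, a fatty acid carrier found in adipocytes and other cells, was also high there, at 5.27 and 3.81 on Bt.97.1.S1_at against -1.44 to 0.25 elsewhere. The other genes of the adipocyte list did not share this: ADIPOQ, the adipocyte hormone adiponectin, was lowest in replicate 3 (-0.78 and -0.14), and CIDEC and LEP lay between -0.10 and 0.26 there. The part of FABP4-expressing cells in the values of the GHR probe set Bt.16012.1.S1_at was not tested.

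In the list of IGF2 RNA-binding proteins and genes of the imprinted network, 2 of 20 probe sets were lower (10%, beside 3.46% of all probe sets). None was higher, beside 2.44% of all. MEST, an imprinted gene often expressed together with IGF2, had -0.64 (SE 0.124, adjusted p = 0.0205) on 1 of its 4 probe sets and -0.51, -0.37 and -0.00 on the others. CDKN1C, an imprinted inhibitor of the cell cycle, had -0.60 (SE 0.142, adjusted p = 0.0454) on 1 of its 3 probe sets and -0.17 and 0.03 on the others. MEST did not pass without replicate 2 or 3 (adjusted p = 0.0789 and 0.0730), nor did CDKN1C (0.171 and 0.167). None of the 10 calls in these lists held without the replicate block, and with the replicate as a random block only SHC1 on Bt.4279.1.S1_at passed (adjusted p = 0.0325, the others 0.0526 to 0.318). After quantile normalization CCN5 (0.0673), the second SHC1 probe set (0.0887), PIK3R2 (0.128) and CDKN1C (0.0667) did not pass, and with robust variance moderation the second ADAMTS1 probe set did not (0.0552).

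**Figure D5:**
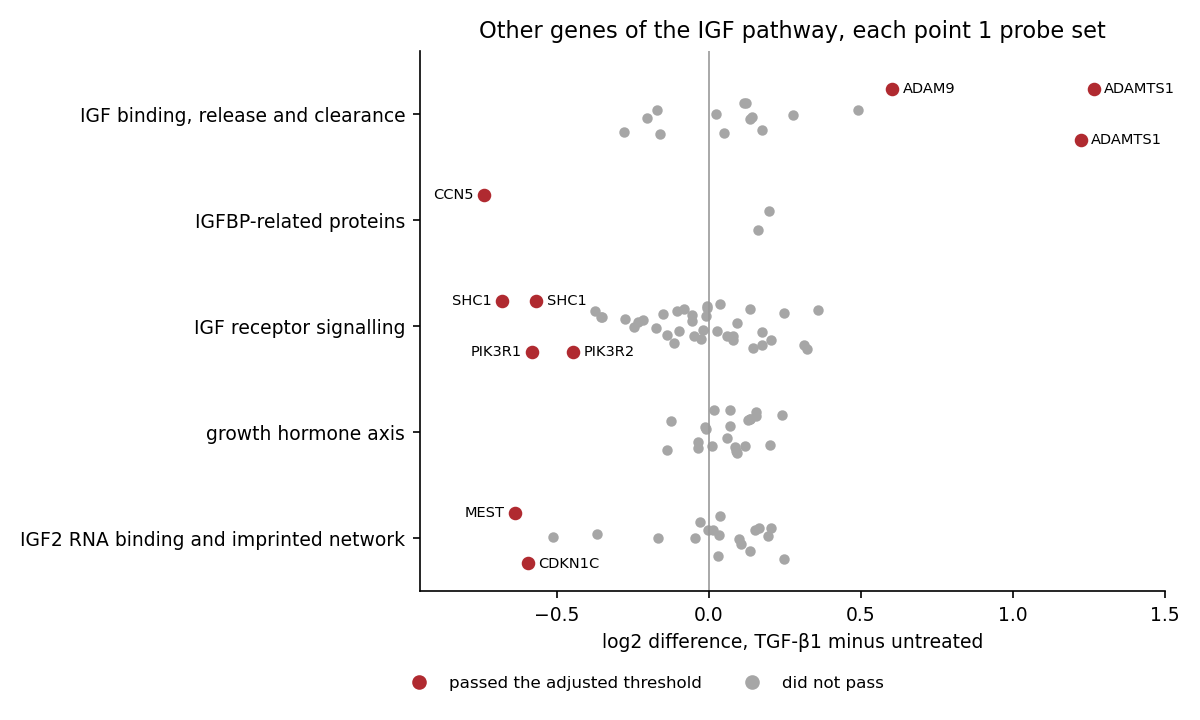
Log2 difference, TGF-β1 minus untreated (x axis), of the probe sets in 5 lists of other IGF pathway genes, each point 1 probe set, with a vertical offset only for legibility. Red points passed the adjusted threshold and carry the gene's name: ADAMTS1 and ADAM9 lie to the right, and CCN5, SHC1, PIK3R1, PIK3R2, MEST and CDKN1C to the left.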

How the data were processed

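The deposited table holds log2 signals of 24128 probe sets on 6 arrays, which the authors made by robust multi-array averaging in GeneSpring and centred on each probe set's median over the arrays. No detection call is used here, and 3 arrays per group limit the precision. The 112 control probe sets were left out. Of the 24016 others, 13292 had 1 annotated symbol, 86 several and 10638 none, and symbols were updated through RefSeq. The members and lists were chosen with earlier results of these data known.

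Every probe set was fitted with limma 3.58.1 (R 4.3.3) with the replicate number as a block, two-sided, with Benjamini-Hochberg adjustment over all probe sets and a threshold of 0.05. The pairing comes from the cultures of 3 cows grown with and without TGF-β, the numbers being read as the cows. After removal of group means, same-numbered arrays correlated at 0.69 to 0.85 and other pairs at -0.68 to 0.19. The methods' unequal-variance test on the groups is an alternative. The fit was tested on simulated data. Named were all members, the called genes of each list, INSR, GHR and the 3 genes most like the member of smallest p. COL1A1, COL1A2, FABP4, ADIPOQ, CIDEC, LEP and the genes named without a call were chosen after their values were seen. Figures were drawn with matplotlib 3.10.9. No genome of the array's probes was used, so no coordinates or sequences are given. Among the members, IGF1, IGF2 and IGF1R have A1 and S1 probe sets of the same number. Whether both of such a pair measure the gene's transcript was therefore not checked.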

Additional observations from a re-analysis of the deposited data

How the results depend on the processing

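Without the replicate block no probe set of any gene passed (0 higher and 0 lower, with 1377 at an unadjusted p under 0.05 and a lowest adjusted p of 0.214). At the same adjusted threshold the methods' t-test gave 0 and 0 as well (1032 unadjusted). The study's own list was cut differently, at p under 0.05 and a change of at least 2-fold with no adjustment named. It held genes in both directions. Under limma on the groups and under the t-test, 0 IGF axis probe sets passed the adjusted threshold. IGFBP5 kept its difference of 1.66 with adjusted p of 0.647 and 0.9997. With the replicate as a random block, 148 probe sets were higher and 164 lower, none of the axis, with IGFBP5 at 1.66 (adjusted p = 0.0671). Repeated quantile normalization gave 377 and 443, gene means 205 and 419 genes, and leaving out a replicate 272 to 590 higher and 267 to 747 lower. Leaving out a replicate gave 0 or 1 IGF axis probe sets lower, the 1 being IGFBP6 without replicate 2.

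IGFBP5 passed under every other alternative run, at 1.29 to 2.07, and IGFBP6 ranged from -1.19 to -0.55 without a replicate. The 2.07 came from quantile normalization of centred values, whose SD ran from 0.234 to 0.470 over the arrays, so its size is uncertain. The gene mean of IGFBP5 is its single probe set, so it was no separate measure. Signs turned only among small differences. Leaving out a replicate gave -0.094 to 0.20 for IGF1 Bt.12750.1.S1_at, -0.15 to 0.034 for IGF2 Bt.23176.2.S1_a_at, -0.030 to 0.15 for IGF2 Bt.29867.1.S1_at, -0.073 to 0.25 for IGF1R Bt.12759.1.A1_at, -0.11 to 0.048 for IGFBP2 Bt.149.1.S1_at and -0.092 to 0.032 for INSR as a mean. As gene means IGF2 was 0.00182 and IGF1R -0.042. The cause was not tested. The centring removes expression levels, so whether a probe set without a difference measured its gene above background cannot be told.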

Other observations

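Genes beside the IGF axis in the genome were read from the ARS-UCD2.0 annotation, 3 protein-coding genes on each side of every member. Of these 54 genes, members left out, 25 were named on the array with 36 probe sets, and 0 passed the paired limma test in either direction, beside 2.44% higher and 3.46% lower over all probe sets. TNS1, which encodes the focal adhesion protein tensin 1 and lies beyond IGFBP5 on the side away from IGFBP2, gave 0.32 and 0.24 on its 2 probe sets (adjusted p = 0.229 and 0.295). TNP1, between IGFBP5 and TNS1, gave 0.21 (adjusted p = 0.366), and RPL37A, on the other side of IGFBP2, gave -0.02 (0.941). IGFBP1, the neighbour of IGFBP3, gave 0.12 (0.670), and INS, the neighbour of IGF2, gave 0.06 (0.840). Larger differences lay in the lower direction, also without passing. NUP37, 3 genes from IGF1, gave -0.40, -0.35 and -0.30 (0.116, 0.215 and 0.244), and EIF4B, 3 genes from IGFBP6, gave -0.36 (0.137).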
